A study of Arabidopsis thaliana with 6 samples.

Results

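The 10 genes described here were followed through the response of Arabidopsis seedlings to lasalocid sodium (LS), an ionophore that carries cations across membranes. They were chosen by name, as 9 NAC and MYB transcription factors that head the programme for the secondary cell wall, with 1 of that programme's products. The factors are VND6, VND7, SND1 and NST1 (NAC family) and MYB46, MYB83, MYB58, MYB63 and MYB85 (MYB family), and the product is XCP1. Their loci were AT5G62380, AT1G71930, AT1G32770, AT2G46770, AT5G12870, AT3G08500, AT1G16490, AT1G79180, AT4G22680 and AT4G35350 in the order just given. On the array they are 10 of 29030 loci and 11 of the 43603 gene probes, and 7 of the 10 genes were bright enough to be tested, among 21820 genes tested in all.

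The secondary wall is the thick, lignified layer laid down inside the primary wall of xylem vessels and fibres once a cell has stopped expanding. Its genes are switched on in tiers: NAC factors start the programme, MYB46 and MYB83 relay it, and further MYB factors turn on the genes for individual wall polymers. VND6 and VND7 do this in vessels and SND1 and NST1 in fibres, while MYB58, MYB63 and MYB85 act on the genes for lignin.

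The seedlings were wild-type Col-0 plants grown in the dark for 3 days and then held in the dark, in liquid medium, for 24 h, so that the labels give their age as 4 days. LS samples received 1 µM LS for those 24 h and control samples received 0 µM. There were 3 samples of each, and RNA of whole seedlings was hybridised to 1 one-colour Agilent array per sample. Whether the control medium held the solvent of LS is not given in the sources used here. The labels do not say whether the replicates came from separate cultures, so p-values measure the spread between these samples, which may be technical.

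Levels are log2 signals from which the array's own 75th percentile was subtracted, so that 0 stands for a probe at that percentile. The 75th percentile lay between 1309 and 2123 signal units on LS arrays and between 1067 and 1447 on control arrays, and 72.6% to 77% of spots were well above background. LS replicates 2 and 3 were on a second slide, while LS replicate 1 and all control replicates shared the first. In LS replicate 3 the spike-in RNA lay 0.18 below the 75th percentile on the log2 scale, and on the other 5 arrays it lay between 0.85 and 1.51 above it. A gene is called when limma's adjusted p is under 0.05 and the fold is at least 1.5. By this rule 694 genes rose, which is 3.18% of the genes tested, and 478 fell, which is 2.19%. Higher genes were 59.2% of the calls, and 92.8% of them when arrays were scaled on their spike-in RNA instead. The number of arrays limits the precision throughout.

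None of the 7 tested genes passed that rule under limma in either direction (0 higher and 0 lower), and 2 of them, MYB63 and MYB46, had an unadjusted p under 0.05. The methods' t-test (used without adjustment at the same fold) called 1 of them, MYB63, and 0 after adjustment. Of the 7, 4 lay above 0 and 3 below, with a median log2 fold change of 0.05 beside -0.03 over all genes. Changes between -0.30 and 0.25 made up the middle 50% of all genes, and 5 of the 7 were inside it. All 7 were inside the middle 90%, from -0.87 to 0.87. The 95% interval of the change included 0 for 5 of the 7. MYB63 alone had every LS array above every control array, which is 1 of 7 beside 17.5% of all genes, and 0 of 7 had every LS array below, beside 17.7%.

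**Figure D1:**
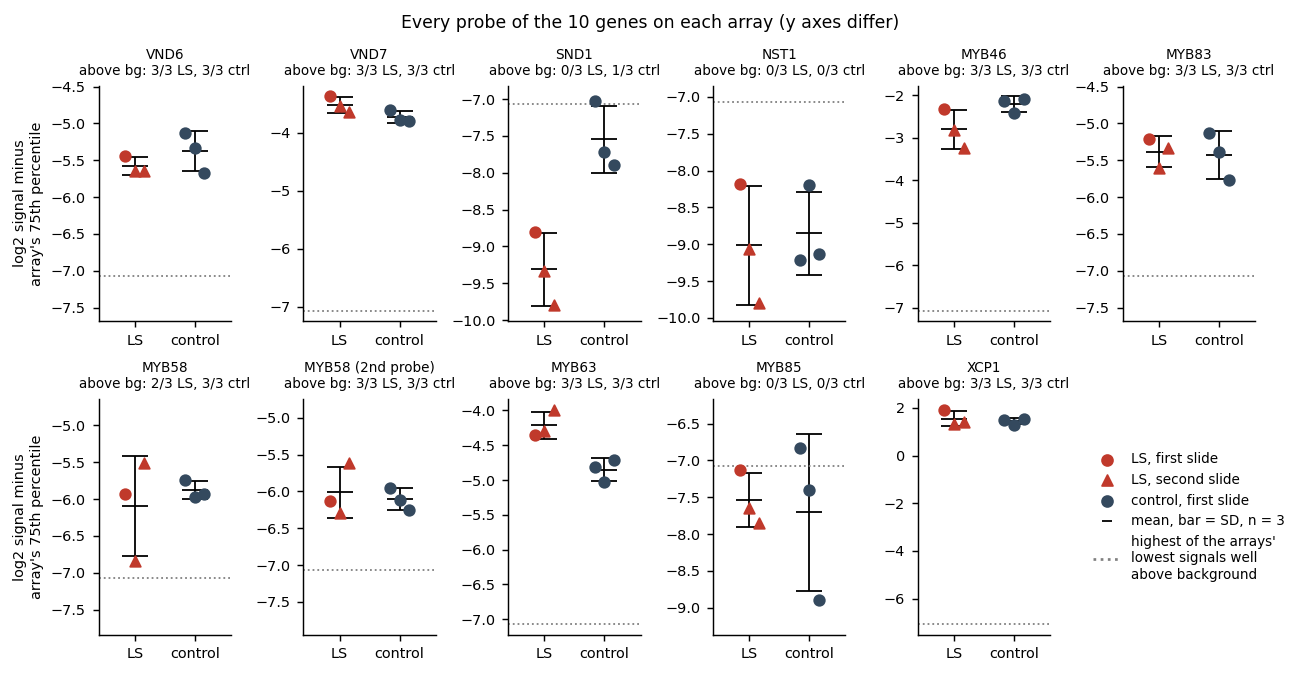
Log2 signal minus the array's 75th percentile (y axis, a separate scale in each panel) for the 11 probes of the 10 genes, with LS left and control right. Points are single arrays, short lines are means with SD (n = 3 each), and the dotted line is the highest of the arrays' lowest signals well above background. MYB63 is the tested gene whose groups do not overlap, and SND1, NST1 and MYB85 lie near or under the dotted line.

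At the top of the vessel branch, both NAC switches were detected on all 6 arrays. VND7, the switch for protoxylem vessels, had levels of -3.37, -3.53 and -3.64 in LS seedlings, against -3.60, -3.78 and -3.80 in control seedlings. The groups overlapped narrowly, since LS replicate 3 lay below the first control replicate. The log2 fold change of VND7 was 0.21 (SE 0.16, 95% interval -0.16 to 0.58, adjusted p = 0.439 by limma), a ratio of 1.16 with an interval of 0.896 to 1.49.

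VND6, the switch for metaxylem vessels, had levels of -5.44, -5.65 and -5.65 in LS seedlings, against -5.13, -5.34 and -5.67 in control seedlings. The LS values fell inside the spread of the controls. Its log2 fold change was -0.20 (SE 0.19, 95% interval -0.64 to 0.24, adjusted p = 0.54 by limma), a ratio of 0.871 with an interval of 0.644 to 1.18.

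The fibre switches gave almost no signal in these seedlings. NST1 was not well above background on any of the 3 LS arrays or the 3 control arrays, with 4.5, 2.79 and 2.38 signal units in LS seedlings and 2.43, 4.79 and 1.9 in control seedlings. SND1 fell short of that level on all LS arrays, with 2.91, 2.34 and 2.38 signal units, and reached it on 1 of 3 control arrays, with 11.1, 6.68 and 4.51 signal units. For comparison, the lowest signal well above background was 9.72 to 11.8 units on LS arrays and 7.69 to 9.79 on control arrays. Every LS value of SND1 was thus under every control value, but 5 of the 6 arrays did not tell it from background, and no fold is given.

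MYB46, the relay that the NAC factors switch on directly, had the lowest value of the 7 changes. Its levels were -2.33, -2.82 and -3.25 in LS seedlings, against -2.13, -2.41 and -2.08 in control seedlings. LS replicates 2 and 3 lay under all controls, whereas the first LS replicate lay above the second control replicate. MYB46 averaged -2.80 ± 0.46 in LS seedlings and -2.21 ± 0.18 in control seedlings (SD, n = 3 each), which gave a log2 fold change of -0.59 (SE 0.25, 95% interval -1.18 to -0.01, adjusted p = 0.19 by limma). The ratio was 0.663 with an interval of 0.442 to 0.994, and the spread was wider among LS arrays than among controls. In RNA from whole seedlings, fewer cells of a type and less RNA per cell cannot be told apart.

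The size of the MYB46 value depended on which arrays entered. On the first slide LS replicate 1 alone stood beside the 3 controls, and the difference was -0.12, with no spread of its own on the LS side. Without LS replicate 1 it was -0.83, and without LS replicate 3 it was -0.37. LS replicates 2 and 3 differed from each other although they shared the second slide. Under spike-in scaling the value was 0.00, just under 0 before rounding. The second slide holds LS samples alone, and the part of the slide in this value was not tested.

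MYB83, which acts redundantly with MYB46, had levels of -5.21, -5.61 and -5.33 in LS seedlings, against -5.13, -5.39 and -5.77 in control seedlings. The LS arrays lay within the range of the controls. Its log2 fold change was 0.05 (SE 0.21, 95% interval -0.45 to 0.55, adjusted p = 0.903 by limma), and its sign changed with the processing. The difference between MYB83 and MYB46 within an array was -2.58 ± 0.44 in LS seedlings and -3.22 ± 0.41 in control seedlings (SD, n = 3 each). A shift of a whole array on the log2 scale cannot move this difference, but quantile normalization or normexp can.

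Among the lignin activators, MYB63 had the highest of the 7 changes. Its levels were -4.35, -4.30 and -3.99 in LS seedlings, against -4.81, -5.03 and -4.71 in control seedlings. All LS arrays lay above all control arrays, including the LS array that shared a slide with the controls. MYB63 averaged -4.21 ± 0.20 in LS seedlings and -4.85 ± 0.17 in control seedlings (SD, n = 3 each), which gave a log2 fold change of 0.64 (SE 0.18, 95% interval 0.23 to 1.05). The ratio was 1.56 with an interval of 1.17 to 2.07, and the adjusted p was 0.0772 by limma, short of the threshold. On the first slide, with LS replicate 1 alone against the 3 controls, the difference was 0.51, and with 1 array left out at a time it stayed between 0.53 and 0.71. The methods' t-test, which was used at an unadjusted threshold, calls MYB63, and after Benjamini-Hochberg adjustment it does not.

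MYB58, the closest relative of MYB63, was read by 2 probes. The brighter probe gave -5.93, -6.84 and -5.51 in LS seedlings, against -5.74, -5.97 and -5.93 in control seedlings, and was well above background on 2 of 3 LS arrays and 3 of 3 control arrays. The spread of the LS arrays covered all the controls. The log2 fold change of MYB58 was -0.21 (SE 0.32, 95% interval -0.97 to 0.54, adjusted p = 0.716 by limma). The other probe, detected on all arrays, gave -6.13, -6.29 and -5.62 in LS seedlings, against -5.95, -6.11 and -6.25 in control seedlings, a log2 fold change of 0.09 (SE 0.21, adjusted p = 0.826 by limma). The probes differed in sign and neither passed the test, so MYB58 has no settled direction.

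MYB85, another activator of lignin genes, was not well above background on any of the 6 arrays. Its signal was 9.37, 7.51 and 9.18 units in LS seedlings, against 12.7, 8.33 and 2.25 units in control seedlings. The control arrays alone covered a wider range than the LS arrays, and no fold is given.

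MYB46 and MYB63 were the farthest apart in how they moved over the 6 arrays, among the 6 members detected on all of them by their brightest probe, which leaves out MYB58. The level of MYB63 minus that of MYB46 was -2.01, -1.47 and -0.73 within the 3 LS arrays, against -2.68, -2.62 and -2.63 within the 3 control arrays. The control arrays lay close together and every LS array lay above them, with LS replicate 3 farthest. The mean difference was -1.41 ± 0.64 in LS seedlings and -2.64 ± 0.03 in control seedlings (SD, n = 3 each), a shift of 1.24 on the log2 scale. This pair was picked after its values were seen, so the shift is a description without a test, and it shows unequal change of the pair rather than which gene moved.

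XCP1, a cysteine protease that clears the contents of dying vessel cells, stands at the end of the vessel branch. Its levels were 1.92, 1.33 and 1.39 in LS seedlings, against 1.5, 1.29 and 1.52 in control seedlings. The first LS replicate was the highest of the arrays and the other LS replicates lay among the controls. The log2 fold change of XCP1 was 0.11 (SE 0.20, 95% interval -0.36 to 0.58, adjusted p = 0.772 by limma), a ratio of 1.08 with an interval of 0.777 to 1.5. XCP1 minus VND7, its known activator, was 5.06 ± 0.21 within LS arrays and 5.16 ± 0.14 within control arrays (SD, n = 3 each). XCP1 minus MYB46 was 4.35 ± 0.26 within LS arrays and 3.65 ± 0.05 within control arrays. VND7 minus VND6 was 2.06 ± 0.06 and 1.65 ± 0.19. These differences are descriptions without a test.

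The remaining regulators of the programme were examined as 3 lists. Of 33 such genes 29 were tested, 1 rose (3.45%, beside 3.18% of all genes) and 1 fell (3.45%, beside 2.19%), and their median log2 fold change was 0.20. Among them 11 of 29 had all LS arrays above all controls, beside 17.5% of all genes, and 2 of 29 had all LS arrays below, beside 17.7%. The lists were not sorted into activators and repressors, and hold both (VNI2, for example, is a repressor). The counts and the median therefore give no direction for the programme.

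**Figure D2:**
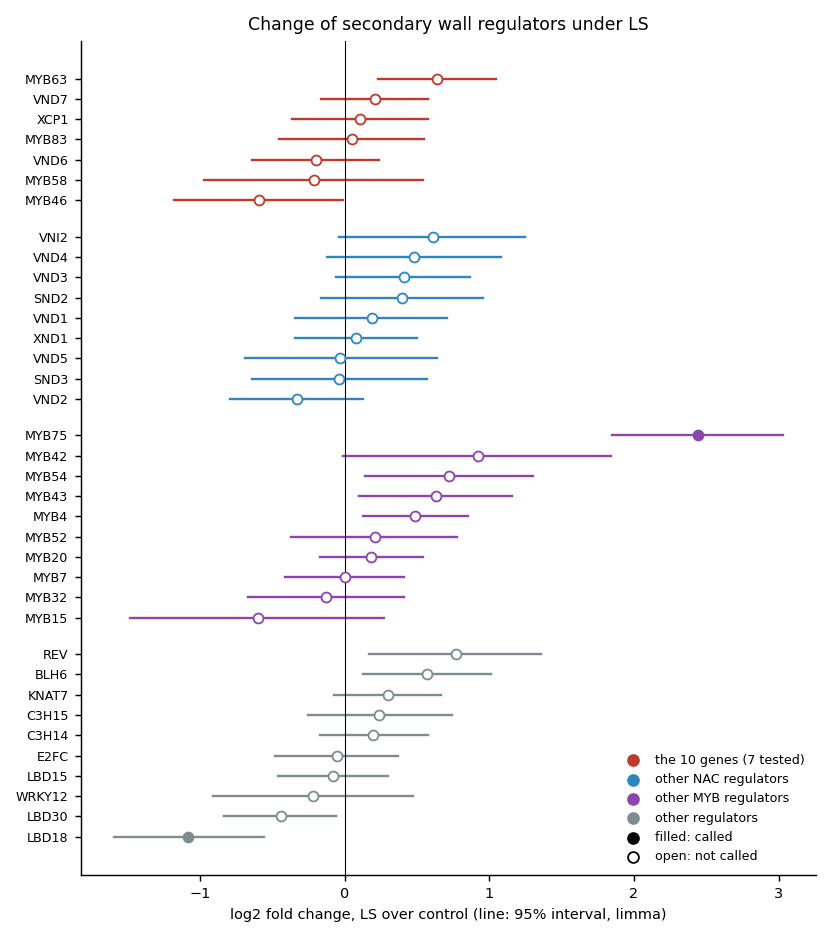
Log2 fold change, LS over control (x axis), of the 7 tested genes and the 29 other tested regulators, 1 row each, with the 95% interval from limma as a line (3 arrays per group). Filled points passed the call: MYB75 at 2.44 and LBD18 at -1.08. MYB63 and MYB46 are the ends of the red group, at 0.64 and -0.59.

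No gene of the 9 tested NAC regulators was called, and their median was 0.19. The brightest were VNI2, a repressor that binds VND7, with a log2 fold change of 0.61 (adjusted p = 0.219 by limma), and SND3, a fibre NAC factor, with -0.04 (adjusted p = 0.944 by limma). Among 10 tested MYB regulators, with a median of 0.35, MYB75 rose. MYB75 is best known as an activator of anthocyanin genes. Its levels were -2.39, -2.76 and -2.42 in LS seedlings, against -4.59, -4.84 and -5.47 in control seedlings, and the groups were far apart. The log2 fold change of MYB75 was 2.44 (SE 0.25, adjusted p = 0.0107 by limma), a ratio of 5.43. With slide as a block the change was 2.57 and the adjusted p 0.0702 by limma.

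Of the 10 remaining regulators, with a median of 0.08, LBD18 fell. LBD18 is a LOB-domain factor that acts in lateral root formation and in vessel differentiation, where it is part of a loop with VND7. Its levels were -0.59, -0.42 and -1.09 in LS seedlings, against 0.31, 0.20 and 0.61 in control seedlings, with every LS array below every control array. The log2 fold change of LBD18 was -1.08 (SE 0.22, adjusted p = 0.041 by limma), and its other probe gave -0.97 (adjusted p = 0.0316 by limma). The change lay between -1.22 and -0.49 over 18 alternatives and the call held in 8 of them. Leaving out any 1 array other than LS replicate 2 ended the call, at -1.16 to -0.88 with adjusted p of 0.0567 to 0.126 by limma, and with slide as a block the change was -0.97 (adjusted p = 0.244 by limma).

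**Figure D3:**
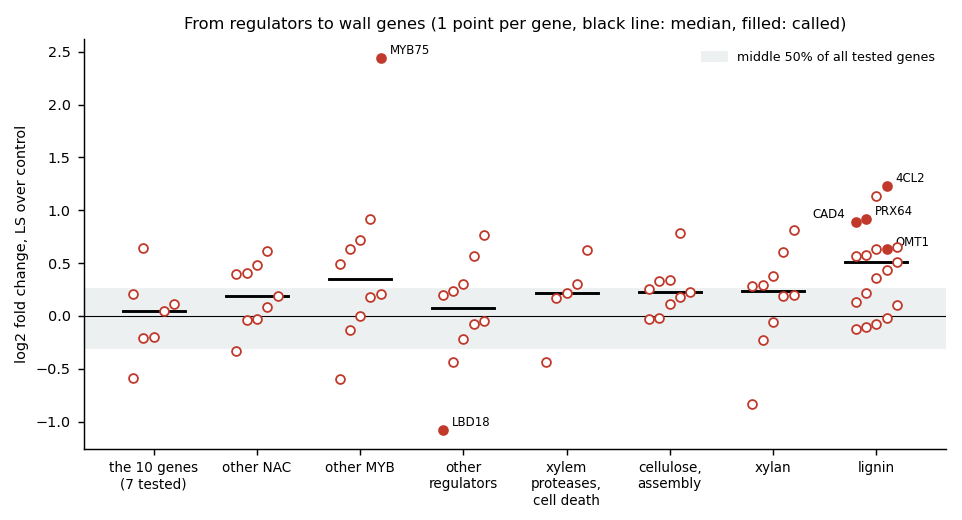
Log2 fold change, LS over control (y axis), of each tested gene (1 point) in 8 groups running from the regulators to the wall polymers, with the group's median as a black line and the middle 50% of all tested genes shaded. Filled points passed the call. The 7 tested of the 10 genes have a median of 0.05 and lignin synthesis has the highest median, 0.51, with 4 filled points.

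Below the regulators come the genes of the wall polymers. Of the 9 tested genes of cellulose synthesis and wall assembly none was called, with a median of 0.23. FLA12 and FLA11, fasciclin-like proteins of the secondary wall, had log2 fold changes of 0.78 (adjusted p = 0.101 by limma) and 0.18 (adjusted p = 0.677 by limma). The cellulose synthase subunits of the secondary wall, named after their values were seen, gave 0.11 for CESA4, -0.02 for CESA7 and 0.25 for CESA8, with adjusted p of 0.768, 0.942 and 0.517 by limma. No xylan gene of 10 was called either, with a median of 0.24. The brightest, FRA8 and PARVUS, both of which act in making xylan, had log2 fold changes of -0.83 (adjusted p = 0.127 by limma) and -0.23 (adjusted p = 0.544 by limma).

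The proteases and cell death genes that accompany vessel formation were likewise without a call among 5 tested, with a median of 0.22. XCP2, the paralogue of XCP1, had a log2 fold change of 0.17 (adjusted p = 0.701 by limma). XSP1, a serine protease of xylem, had -0.44 (adjusted p = 0.178 by limma).

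Lignin synthesis was the list in which most calls were made. All 19 genes were tested, 4 rose by the rule as reported, 0 fell, 15 lay above 0, and the median was 0.51. Not called were the laccases LAC4, LAC11 and LAC17, with log2 fold changes of -0.11, 0.10 and 0.13, and the peroxidase PRX72, with -0.02. These were named after their values were seen, and their adjusted p lay between 0.737 and 0.966 by limma. In 10 of 19 every LS array lay above every control array, beside 17.5% of all genes. The call rate of 21.1% stands beside 3.18% of all genes. The study used these samples to describe lignin genes, so this count is not independent evidence of their direction.

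The 4 genes that rose stand at separate steps of the pathway. 4CL2, a ligase that activates the acids from which lignin units are made, had -1.84, -2.34 and -1.76 in LS seedlings, against -2.97, -3.29 and -3.37 in control seedlings, a log2 fold change of 1.23 (SE 0.21, adjusted p = 0.03 by limma). PRX64, a peroxidase that joins lignin units in the wall, averaged 2.45 ± 0.20 in LS seedlings and 1.53 ± 0.21 in control seedlings (SD, n = 3 each), which gave a log2 fold change of 0.92 (adjusted p = 0.0386 by limma). CAD4, which makes the lignin alcohols, averaged 1.67 ± 0.14 in LS seedlings and 0.78 ± 0.25 in control seedlings, a log2 fold change of 0.89 (adjusted p = 0.0413 by limma), and its other probes gave 0.70 and 0.35 without a call. OMT1, a methyltransferase of the pathway, averaged 4.25 ± 0.04 in LS seedlings and 3.62 ± 0.05 in control seedlings, a log2 fold change of 0.63 (adjusted p = 0.0495 by limma). The other probes of OMT1 gave 0.71, 0.62 and 0.62 without a call (adjusted p of 0.0651, 0.0517 and 0.0547 by limma).

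These calls were close to the threshold, and 0 of the 19 were called without a filter on dim probes, with the replicate block or with slide as a block. With normexp 7 of the 19 were called higher, and with quantile normalization 5. With 1 array left out at a time, 0 to 1 of the 19 lignin genes were called higher (4CL2 without LS replicate 2 and PRX64 without LS replicate 3, none without any other array), while the list's median stayed between 0.36 and 1.10 over all alternatives. The calls of 4CL2, PRX64, CAD4 and OMT1 held in 9, 7, 6 and 4 of 18 alternatives. Whether the lignin genes moved with MYB63 cannot be read from 3 arrays per group, and no test of it was made.

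Genes whose pattern over the 6 arrays was most like that of the 3 brightest members were found by the root mean square difference of mean-centred levels, over 20656 genes. For XCP1 they were GATA10 (0.049), ASD2 (0.054) and ATCG00300 (0.064). For MYB46 they were scpl35 (0.048), GASA4 (0.054) and AT3G52480 (0.065), with log2 fold changes of -0.57, -0.63 and -0.51. For VND7 they were bbx23 (0.045), SETH6 (0.048) and BES1 (0.049). None of these 9 genes was called. Among the same 6 members, the closest pairs were MYB83 with VND6 (0.15) and VND7 with XCP1 (0.16), and the most distant was MYB63 with MYB46 (0.72). These differences include the gap between fold changes, which was widest for MYB63 and MYB46. With 6 arrays and 20656 genes, close patterns can also arise without any link between genes. Shared regulation was not tested.

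Markers of the tissues in the seedling were read as the sum of signals over the 75th percentile. The 5 xylem markers, which include XCP1 and VND7, were all detected on all arrays and summed to 4.56 to 6.64 on LS arrays and 4.96 to 5.17 on control arrays. Procambium markers, 4 of 5 detected on all arrays, summed to 1.42 to 2.06 on LS arrays and 1.23 to 1.58 on control arrays. Endodermis markers summed to 16.4 to 22.6 on LS arrays and 18.8 to 21.2 on control arrays. For these lists the sums of LS and control arrays overlapped, although single genes separated. TMO5 (log2 fold change 0.77, 1 of 5 procambium genes) and SCR (0.73, 1 of 3 endodermis genes) had every LS array above every control array. AHP6 (-0.79, 1 of 5 procambium genes) had every LS array below. The shares over all genes were 17.5% above and 17.7% below. The other probe of SCR gave -1.15 (adjusted p = 0.0666 by limma).

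For the remaining lists the sums of LS and control arrays did not overlap, although a sum follows its brightest genes. Root hair markers summed to 2.26 to 2.44 on LS arrays and 0.46 to 1.51 on control arrays. EXPA7 and COBL9 had every LS array above every control array, 2 of 3 genes beside 17.5% of all genes, and PRP3 did not (log2 fold change 0.14). Epidermis markers summed to 29.9 to 36.4 on LS arrays and 45.9 to 56.3 on control arrays. PDF1 and FDH had every LS array below every control array, 2 of 3 genes beside 17.7% of all genes, while ATML1 gave 0.00. The other probe of FDH gave 0.17 and that of ATML1 gave -0.70, both without a call. Phloem markers summed to 3.22 to 4.06 on LS arrays and 4.11 to 4.33 on control arrays, with SUC2 the 1 of 4 genes whose arrays separated, APL at 0.00 and PP2-A1 at 0.08. Cotyledon and plastid markers summed to 180 to 321 on LS arrays and 382 to 422 on control arrays, and 3 of 3 separated.

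The direction of the phloem and epidermis lists depended on the scaling, while the cotyledon and plastid list and the root hair list kept theirs. The median log2 fold change was -0.15 for phloem, -0.45 for epidermis and -0.68 for cotyledon and plastid markers as reported, and 0.44, 0.14 and -0.09 under spike-in scaling. Spike-in RNA minus the 75th percentile was -0.18 in LS replicate 3, beside 0.85 to 1.51 on the other arrays. The part of that array in these shifts was not tested. Root hair markers had a median of 1.64 as reported, 2.23 under spike-in scaling and 1.02 without control replicate 3. That replicate held the lowest control levels of EXPA7 (-3.31) and COBL9 (-2.57). No marker gene was called by its brightest probe as reported, although 3 of the 5 probes of PDF1 were called lower, and the part of tissue make-up in the values of MYB46 and MYB63 was not tested.

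**Figure D4:**
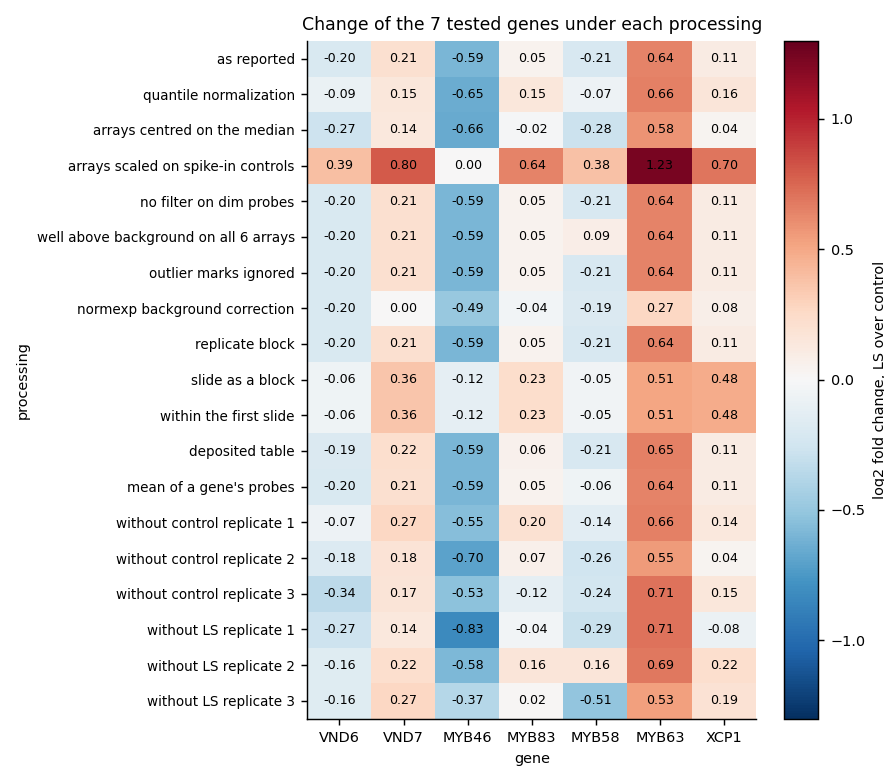
Log2 fold change, LS over control (colour and printed value), of the 7 tested genes (columns) under each processing (rows), from the one reported to those with 1 array left out. MYB63 is above 0 in every row, from 0.27 to 1.23, and MYB46 lies between -0.83 and 0.00. Scaling on spike-in RNA raises every gene, with the median of all genes moving to 0.56.

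Across the processing alternatives, MYB63 was above 0 each time, from 0.27 with normexp background correction to 1.23 with spike-in scaling. MYB46 was at or below 0 each time, between -0.83 and 0.00. VND7 lay between 0.00 (just under 0 before rounding, with normexp) and 0.80. MYB83, MYB58, VND6 and XCP1 each took both signs. Spike-in scaling gave a median of 0.56 over all genes, against -0.03 as reported, and 0.64 over the 7 genes, which stood 0.08 above all genes in each case.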

How the data were processed

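RNA of 3 LS and 3 control samples was hybridised to one-colour Agilent arrays. The authors scanned them with Agilent Feature Extraction 10.7.3.1, and the deposited scanner files hold spot intensity, background-subtracted by that software. The deposited value table holds a ratio, the processed signal over the array's 75th percentile, for 38614 spots, and served as an alternative.

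From the scanner files, the log2 processed signal minus the array's 75th percentile was taken, spots marked as outliers were set missing and 1417 control spots were left out. A probe was tested where all arrays of LS, or all arrays of control, read it as well above background, 32349 of 43603, with limma 3.58.1 in R 4.3.3 (lmFit and eBayes, Benjamini-Hochberg over all tested probes). A call needs an adjusted p under 0.05 and a fold of at least 1.5. The brightest tested probe stands for a gene. An exact permutation test of 3 against 3 cannot go below 0.1, so none is given. The fit was tested on simulated data.

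Named genes are all 10 members, up to 5 called genes per list with the largest change, the 2 brightest where none was called, and the 3 genes nearest in pattern to each of the 3 brightest members. The members and lists were chosen with earlier results of these data known. Normexp (offset 50) was run on the median signal. No sample column was left unmapped (0). Gene names come from the array files and a RefSeq table, which lists all 10 loci. The array names an older genome build than that table, so no coordinates or sequences are given.

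Alternatives were quantile normalization, median centring, spike-in scaling, other filters on dim probes, normexp, the methods' t-test (Welch's test in the study), fold thresholds, replicate number or slide as a block, the first slide alone, the deposited table, the mean of a gene's probes, and each array left out in turn.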

Additional observations from a re-analysis of the deposited data

How the results depend on the processing

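The count of members called, 0 higher and 0 lower, was the same in every alternative except the methods' t-test at an unadjusted threshold, which called 1 higher, MYB63 (0 after adjustment). For single genes, 129 alternative values kept their direction and side of the threshold, 10 changed sign and 1 passed it. The median of the members was 0.64 with spike-in scaling and -0.12 to 0.16 with 1 array left out. Signs turned for MYB83 (-0.02 with median centring, -0.04 with normexp, -0.12 to 0.20 with 1 array left out), MYB58 (0.38 with spike-in scaling, 0.09 with probes detected on all 6 arrays, -0.51 to 0.16 with 1 array left out), VND6 (0.39 with spike-in scaling), VND7 (0.00 with normexp, just under 0 before rounding) and XCP1 (-0.08 to 0.22 with 1 array left out). The 0.09 of MYB58 was that of its other probe, since the brighter one was well above background on 2 of 3 LS arrays. The cause of the other turns was not tested.

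Calls over all genes moved by more than 1.5 times in some alternatives. Beside 694 higher and 478 lower, there were 114 and 67 without a filter on dim probes, 1215 and 984 by the methods' t-test unadjusted, 1 and 0 adjusted, 170 and 109 with the replicate block, 22 and 47 with slide as a block, and 55 and 114 on the first slide alone. Mean-of-probes values gave 990 and 781, and spike-in scaling gave 722 and 56. Calls numbered 43 to 502 higher and 16 to 417 lower with 1 array left out, fewest without control replicate 2. Higher calls made up 59.2% of calls as reported, against 92.8% with spike-in scaling, 31.9% with slide as a block, 32.5% on the first slide, 38% without LS replicate 1 and 69.3% and 72.9% without control replicates 1 and 2. Same-numbered samples did not deviate together (correlations -0.19 to 0.03). These few correlations cannot settle whether the numbers pair samples, since LS replicates 2 and 3 were on another slide than the controls. With the replicate block MYB63 kept 0.64 with an adjusted p of 0.142 by limma. Dim signals limit what can be said of SND1, NST1 and MYB85.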
